A study of Mus musculus with 5 samples.

Results

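H3K27me3, histone H3 trimethylated at lysine 27, was profiled in molar mesenchyme by chromatin immunoprecipitation and sequencing (ChIP-seq), and one H3K27me3 library was compared with a library made with a nonspecific IgG antibody. The members described here were all 24881 broad peaks of that comparison, taken from the 81017 peaks of the 3 lists in the series. The tissue came from molars of wildtype C57BL/6 mice at postnatal day 3, from which the epithelium had been removed, and the series held 2 H3K27me3 libraries, 1 IgG library and, from chromatin that was not precipitated, 2 inputs. No mutant was profiled, and the labels do not give the number of animals behind a library. The same H3K27me3 library, replicate 1, was also called against input replicate 1, so the IgG-called and input-called lists share their immunoprecipitated tags and differ only in the control. Replicate 2 was called against its own input and shares no library with the IgG-called list. There was 1 library on each side of the comparison with IgG, so no test between conditions was possible and all values below are descriptions.

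H3K27me3 is placed by Polycomb repressive complex 2 (PRC2), in which Ezh2 is the methyltransferase. The mark is known for lying in broad stretches over silent developmental regulators, such as the Hox clusters, whose genes set position along the body axis. An IgG library records chromatin that is pulled down without a specific antibody, while an input library records how well each place in the genome is sheared and sequenced. In a mixed tissue a peak can come from the mark in many cells or in some of them, and these cannot be told apart here.

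The IgG-called peaks were short, and few tags stood behind each. They had a median length of 120 bp, ranging from 46 to 1266 bp, and together covered 3.34 Mb, or 0.126% of the sequenced genome. The median pileup, the mean number of overlapping tags after scaling of the larger library, was 3.40, which corresponds to 4.22 tags. At the lowest pileup of 3.22, or 4 tags, stood 35.1% of the peaks, and 283 peaks (1.14%) had more than 6 tags. Most peaks stood alone. Merging peaks that lay 5 kb or less apart gave 18074 stretches, of which 15500 (85.8%) were a single peak. Stretches of 20 kb or longer, called domains here, numbered 92 and covered 2.92 Mb, and they held 1962 peaks, 7.89% of the list, in 0.11% of the genome.

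The sequences under selected peaks show what such a member looks like. The first 3 are the peaks of highest pileup in the 3 longest domains, which lie over the Hoxb, Hoxc and Hoxa clusters. The other 3 come from domains that the input-called list lacked, and each is the peak nearest the gene start among those of at most 300 bp that overlap no untranslated region. Nearer peaks at Olig2 (496 bp, longer than the limit) and at Pax3 (103 bp, in an untranslated region) were passed over for this. CpG dinucleotides are in capitals, and the letters are those of the plus strand of GRCm38 from RefSeq.
Hoxb3 intron, chr11:96336071-96336123: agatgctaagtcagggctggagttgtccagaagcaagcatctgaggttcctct
Hoxc4 intron, chr15:103028550-103028641: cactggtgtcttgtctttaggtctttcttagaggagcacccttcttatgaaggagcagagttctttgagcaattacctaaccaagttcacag
Hoxa2 intron, chr6:52163649-52163706: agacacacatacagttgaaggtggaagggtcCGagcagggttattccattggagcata
Olig2, upstream, chr16:91223258-91223465: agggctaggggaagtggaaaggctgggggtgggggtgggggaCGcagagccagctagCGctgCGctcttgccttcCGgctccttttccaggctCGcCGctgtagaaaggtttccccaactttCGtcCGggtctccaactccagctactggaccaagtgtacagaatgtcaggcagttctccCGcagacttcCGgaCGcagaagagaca
Pax3, upstream, chr1:78197251-78197302: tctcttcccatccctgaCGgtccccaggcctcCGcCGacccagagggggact
Nkx2-3 exon, chr19:43612794-43612896: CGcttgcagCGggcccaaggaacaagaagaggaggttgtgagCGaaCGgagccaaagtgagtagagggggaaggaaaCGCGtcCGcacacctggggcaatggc
The Hoxb3 peak had 8.52 tags on 53 bp and a fold enrichment of 4.65, and it was also called against input and overlapped by a replicate 2 peak. It held 0 CpG, as did the Hoxc4 peak of 92 bp with 7.32 tags, and the Hoxa2 peak of 58 bp with 6.82 tags held 1. The 3 peaks chosen by gene start had fewer tags and more CpG. The Olig2 peak, 1992 bp from the 5′ end, had 4.29 tags and 11 CpG in 208 bp. The Nkx2-3 peak, in an exon 469 bp from the 5′ end, had 5.17 tags and 7 CpG in 103 bp. Both of these were also called against input. The Pax3 peak, 117 bp upstream of the gene, had 4.31 tags and 3 CpG in 52 bp, and was called against IgG alone. None of the 3 was overlapped by a replicate 2 peak.

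CpG density was higher in peaks in domains than in peaks outside them. The median peak of the whole list had 0.794 CpG per 100 bp and 46.9% GC. Pooled over all its bases, the sequenced genome had 0.826 and 41.7%. A median of short peaks and a pooled value are unlike measures, so no closeness is read from these CpG values. Peaks in domains had a median of 1.43 CpG per 100 bp and 49.5% GC, against 0.73 and 46.7% for peaks outside domains. The domains as a whole had a median of 2.26 CpG per 100 bp, with a range of 0.882 to 3.59. Even the domain poorest in CpG was therefore above the genome value.

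By place, 1134 peaks (4.56%) had their midpoint within 1 kb of the 5′ end of a protein-coding gene, where 1.56% of sequenced bases lie, a ratio of 2.92. Other exons held 4.62% of peaks, introns 35.4% and the space between genes 55.4%. The ratio to the genome was 1.42 for exons, 1.01 for introns and 0.922 between genes, so the excess was at gene starts and exons. Among peaks in domains the share at gene starts was 8.26%. Over the other whole lists it was lower than the 4.56% here, 3.97% of input-called peaks and 2.58% of replicate 2 peaks.

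The longest domains lay over homeobox genes. The domain over Hoxb9 to Hoxb1 was 144 kb long and held 115 IgG-called, 87 input-called and 59 replicate 2 peaks. The domain over Hoxc12 to Hoxc4 was 143.3 kb long and held 107, 91 and 39 peaks of the same lists in the same order. The domain over Hoxa2 to Hoxa13 was 115 kb long and held 96, 81 and 39. Every Hox cluster was represented, since Hoxd9 to Hoxd3 lay in a domain of 50.9 kb with 35, 29 and 16 peaks, and Evx2 with Hoxd13 to Hoxd11 in another of 42.8 kb with 30, 23 and 15. Hoxb13, the posterior end of its cluster, had a domain of its own of 43.8 kb with 38, 29 and 20 peaks.

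The rest of the 12 longest domains were between 39.4 and 46.6 kb. They covered Nkx2-3, a homeobox gene of spleen and gut mesenchyme, with 23 IgG-called, 20 input-called and 5 replicate 2 peaks. They covered Nr2e1, the orphan receptor Tlx of neural stem cells, and the neighbouring Ostm1, with 32, 26 and 12. They covered Emx2, a homeobox gene of the cortex and urogenital tract, with 28, 29 and 12. The other 3 held no protein-coding 5′ end. One lay in the body of Camkmt with 25, 21 and 10 peaks, one in Gata4, an endodermal and cardiac factor, 1.07 kb from its 5′ end, with 28, 29 and 14, and one had no protein-coding gene and 23, 16 and 6 peaks.

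Within a domain the called signal was discontinuous. Peaks covered a median of 12.8% of the domain (range 4.81 to 27.9%), at a median of 0.674 peaks per kb, where the whole genome had 0.0094 per kb. The highest peak of a domain had a median of 5.69 tags, and no peak in any domain exceeded 8.52. The domains were thus runs of low, closely spaced peaks, and the highest stacks of the list were elsewhere.

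Those highest stacks sat where the IgG library was also high. All 13 peaks over 10 tags lay outside the domains, and all had a raised background. The highest was at chr2:98666656-98666788, with a pileup of 63.8, or 79.3 tags, a background of 42.5 and a fold enrichment of 1.49. It was 95.5% repeat-masked, it was not in the input-called list, and replicate 2 had a peak there. At 4 places in chr9:3002279-3038201 the stacks were of the same kind, with 20.2 to 44.0 tags and backgrounds of 6.61 to 19.8, and the sequence was 91.7 to 100% repeat-masked. The 4 highest peaks were all 85.7 to 100% repeat-masked, while the fifth, on chromosome 5, was 0% masked.

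The background of a peak, computed from its pileup and fold enrichment, separated the IgG-called list from the input-called one. It was more than 5% above the genome-wide level of 0.601 at 7813 IgG-called peaks (31.4%), and more than 5% above 0.583 at 3762 input-called peaks (16.5%). In the domains these shares were 53.2% of IgG-called peaks and 31.5% of input-called peaks in the domains of that list. Outside the domains they were 29.5% and 15.7%. Peaks with a raised background were thus more frequent in domains with either control, and more frequent with IgG.

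**Figure D1:**
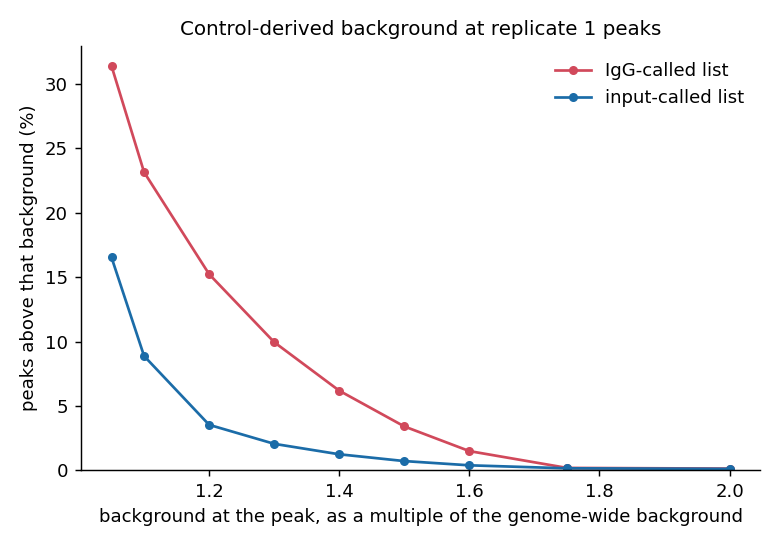
Share of peaks (vertical axis, %) whose background exceeded a given multiple of the genome-wide background (horizontal axis), for the IgG-called (red) and input-called (blue) lists of the same H3K27me3 library. At 5% above the genome the shares were 31.4% and 16.5%, and at a multiple of 1.5 they were 3.40% and 0.712%.

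Scaling bears on which stacks can pass against which control. The H3K27me3 library was scaled by 0.805 against IgG and by 0.78 against input, so a stack of 5 tags became 4.02 and 3.90. If the caller takes the whole part of the scaled pileup, these count as 4 and 3, and the Poisson upper tail reaches 0.005 at a background of 1.08 in the first case and of 0.672 in the second. A stack of 4 tags counts as 3 with either control, and a stack of 6 as 4. The deposited p-values of flat stacks of 4 tags at genome-wide background, 2.47 and 2.52 on the −log10 scale, equalled this calculation. Peaks averaging 5 tags departed from it, with median deposited values of 3.15 against IgG and 2.78 against input where the calculation gives 3.40 and 2.52, and the cause was not tested. A background above 0.672 stood at 5362 IgG-called peaks (21.6%) and at 1005 input-called peaks (4.42%).

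Fewer IgG-called peaks were also called against input than were not. An input-called peak overlapped 11597 of them (46.6%, 95% Wilson interval 46.0 to 47.2%), and 13284 were called against IgG alone. In turn 11151 peaks were called against input alone, 49% of that list. Peaks called against IgG alone were shorter than those called against both, with medians of 108 and 132 bp, and had nearly the same tags, 4.19 and 4.27. A background above the genome-wide level by more than 5% was found at 28.2% of the former and at 35.1% of the latter. In domains the share also called against input was 59.5%, and outside them 45.5%.

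Replicate 2, which shares no library with this list, seldom had a peak at the same spot. It overlapped 827 IgG-called peaks (3.32%, interval 3.11 to 3.55%). Replicate 2 peaks covered 0.245% of the sequenced genome. The overlap expected by chance, which also depends on peak length, was not computed. The share was 3.79% (3.46 to 4.16%) for peaks called against both controls, 2.91% (2.64 to 3.21%) for those called against IgG alone and 1.89% (1.66 to 2.16%) for those called against input alone. The share for IgG-alone peaks thus lay between those of the other classes, but the order was not tested. These intervals cover counting error only and treat peaks of 1 library as independent. In the same order the classes also differed in median length, 132, 108 and 104 bp. They differed as well in the share of peaks within IgG-called domains, 10.1%, 5.98% and 3.54%. The position of a peak relative to a domain went with a wider difference. Replicate 2 overlapped 16.5% (14.9 to 18.2%) of peaks in domains and 2.19% (2.01 to 2.39%) of peaks outside them. Within 5 kb of a peak in a domain replicate 2 had a peak in 92.6% of cases, against 28.3% outside. Over the sequenced genome replicate 2 had 0.0126 peaks per kb, and the share expected within 5 kb was not computed.

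Counted over whole domains, replicate 2 peaks were dense. The 92 domains held 827 replicate 2 peaks, a different set of the same number as above, or 0.283 per kb, which was 22.5 times the 0.0126 per kb of the sequenced genome. Every domain held at least 1 and was above the genome density. Without the 7 domains that hold Hox genes the density was 0.271 per kb, or 21.5 times the genome. A replicate 2 domain overlapped 13 of the 92 (14.1%), since that list had 19 domains in all.

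Of the 92 domains, 47 overlapped a domain of the input-called list and 45 did not. The absent ones were shorter and less dense, with a median length of 24.8 kb and 16 peaks against 28.5 kb and 21 peaks for the shared ones. Absence did not mean an empty region. All 45 held input-called peaks, at least 5 and a median of 11, and 32 of them overlapped an input-called stretch of 10 kb or longer. The longest input-called stretch was under 5 kb in 2 of these domains, 5 to 10 kb in 11, 10 to 15 kb in 15 and 15 to 20 kb in 17. A gap of more than 5 kb between neighbouring input-called peaks broke 37 of the 45, and 12 of the 47 shared domains. Absent domains are those where input-called peaks merged at 5 kb or less form no stretch of 20 kb. Their more frequent gaps and shorter length are therefore partly set by the definition.

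**Figure D2:**
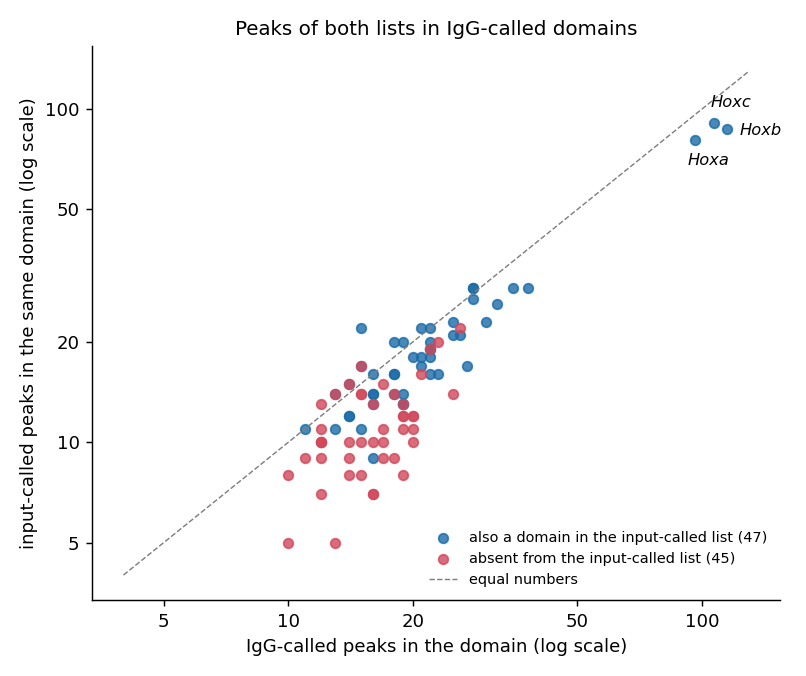
Each point is 1 IgG-called domain, with its IgG-called peaks on the horizontal axis and its input-called peaks on the vertical axis, both on log scales. Blue points are the 47 domains shared with the input-called list, red points the 45 absent from it, and the dashed line marks equal numbers. No domain had fewer than 5 input-called peaks.

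In total the absent domains held 732 IgG-called and 513 input-called peaks, a ratio of 1.43. The ratio was 1.17 in the shared domains and 1.09 over the whole lists. IgG-called peaks were the more numerous in 41 of the 45 absent and 35 of the 47 shared domains. Since the domains were chosen on the IgG-called list, a ratio above that of the whole lists is partly set by the choice. Of the peaks in absent domains 46.9% were called against IgG alone, in shared domains 36.7% and over the whole list 53.4%. Absent domains were defined by the lack of an input-called domain. The differences between absent and shared domains in these ratios, counts and shares are therefore also partly set by the definition.

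Replicate 2 peaks were found in all of the absent domains. They numbered 290, or 0.247 per kb (95% Poisson interval 0.219 to 0.277), which was 19.6 times the genome density, and the shared domains held 0.308 per kb (0.283 to 0.336), or 24.5 times. The medians over single domains were 0.224 and 0.293 per kb, and the ranges, 0.0366 to 0.525 and 0.0722 to 0.473, overlapped widely. Domains are not replicates, so the difference was not tested. A replicate 2 domain overlapped 10 of the shared domains and 3 of the absent ones, which were those over Pax3, Gbx2 and Irx4, the last 2 named after their values were seen. Gbx2 and Irx4 are homeobox genes of the hindbrain boundary and of the heart ventricle.

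**Figure D3:**
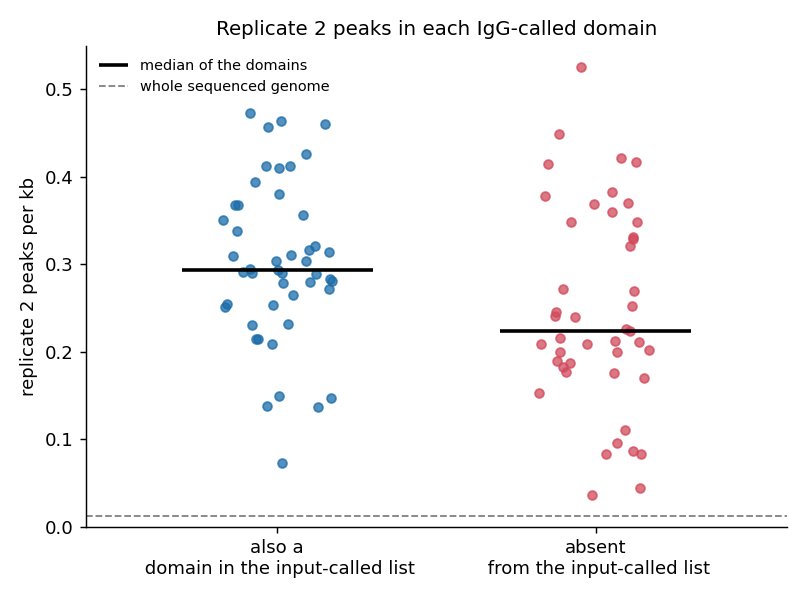
Replicate 2 peaks per kb (vertical axis) in each IgG-called domain, 1 point a domain, for the 47 domains shared with the input-called list and the 45 absent from it. Bars are medians, 0.293 and 0.224 per kb, and the dashed line is the genome density of 0.0126 per kb, below every point.

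Of the 45 absent domains 37 held a protein-coding 5′ end. The 39 genes that start in them included 22 of the gene lists described below. Those lists were chosen with earlier results of these data known. The absent domain with most peaks, over Olig2, a basic helix-loop-helix factor of oligodendrocytes and motor neurons, was 37.3 kb long and held 26 IgG-called, 22 input-called and 9 replicate 2 peaks. Its longest input-called stretch was 13.6 kb, and the widest gap between input-called peaks was 5.50 kb. The domain over the start of Pax3, a factor of neural crest and muscle precursors, was 28.7 kb long and held 25, 14 and 12 peaks, with a longest input-called stretch of 16.4 kb. The Nkx2-3 domain, 45.1 kb, was the longest of those absent, and its 20 input-called peaks formed stretches of at most 11.3 kb around a gap of 8.31 kb. In these 3 the input-called peaks were present in broken runs.

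Among the other absent domains with most peaks, several held genes known from the nervous system. Over Sox1, a factor of neural progenitors, there were 22 IgG-called, 19 input-called and 12 replicate 2 peaks in 28.9 kb. Over Gsx2, a homeobox gene of the ventral forebrain, there were 20, 12 and 4 in 22.6 kb. Over Mnx1, a homeobox gene of motor neurons, there were 19, 8 and 5 in 26.8 kb. Mnx1 had no input-called stretch longer than 7.33 kb. Lbx1, of dorsal spinal interneurons and migrating muscle precursors, had 19, 12 and 7 peaks in 32.5 kb. Slc32a1, which encodes the vesicular GABA transporter and is no transcription factor, had 19, 11 and 5 in 24.8 kb. Lmx1b, of dorsal limb and midbrain, had 20, 10 and 9 in 24.4 kb, with no input-called stretch longer than 5.07 kb.

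Domains over genes of heart, spleen and gonad were also among them. Nkx2-5, a cardiac homeobox gene, had 21 IgG-called, 16 input-called and 6 replicate 2 peaks in 28.5 kb. Tlx1, needed for the spleen, had 20, 12 and 7 in 35.1 kb, with a gap of 11.5 kb between input-called peaks. The domain over Dmrt3, which also reaches into the testis gene Dmrt1, had 19, 13 and 13 in 35.1 kb, so that replicate 2 was as dense there as input. Meis2, which encodes a partner of Hox proteins, had 19, 12 and 7 in 25.9 kb. Uncx, of the vertebral column, and Dmrt2, of somites, had 18 IgG-called peaks each, with 14 and 9 input-called and 4 and 7 replicate 2 peaks. One of the absent domains with most peaks held no protein-coding gene. It lay 0.727 kb from the 5′ end of Zdbf2, an imprinted gene, and had 20, 11 and 9 peaks in 35.7 kb.

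At the edge, absence rested on few bases. The Cdkn2a domain at chr4:89267372-89293492, 26.1 kb long, held 17 IgG-called, 15 input-called and 10 replicate 2 peaks. Its longest input-called stretch was 18.8 kb, and the gap that broke it was 5010 bp where the merging distance was 5000 bp. Over Gsx2 and over Tbx5, a forelimb and heart gene, the input-called stretch was 19989 bp and 19983 bp, just under 20 kb. At the other end, Foxl2, an ovarian and eyelid factor, had no input-called stretch longer than 4.09 kb, although 9 input-called and 6 replicate 2 peaks lay among its 17 IgG-called peaks. The lowest replicate 2 density was in a domain named for that value, which lies inside the long annotated span of Fgfr2 and 107 kb from the nearest protein-coding 5′ end, that of Bub3, with 12 IgG-called, 7 input-called and 1 replicate 2 peaks in 27.3 kb.

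**Figure D4:**
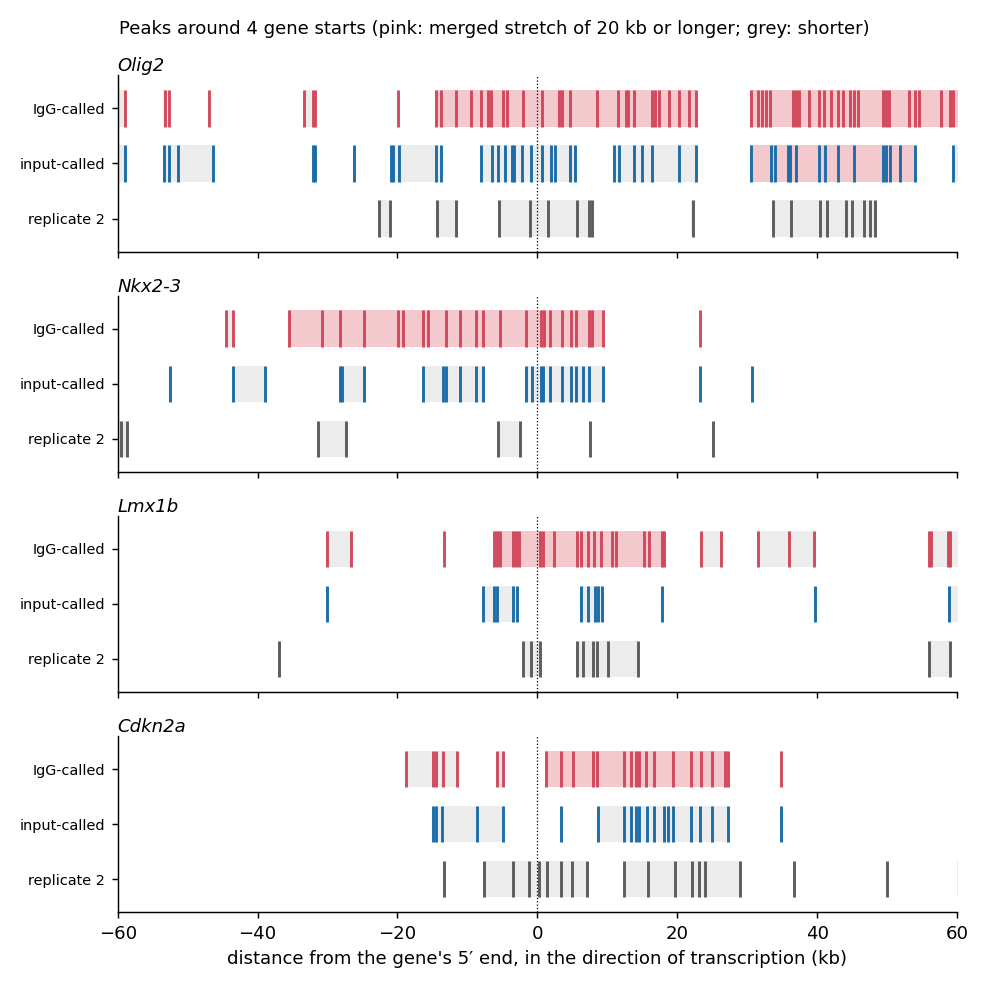
Peaks of the 3 lists (vertical strokes) around the 5′ ends of Olig2, Nkx2-3, Lmx1b and Cdkn2a, by distance in kb in the direction of transcription. Shading marks peaks merged at 5 kb or less, pink for stretches of 20 kb or longer and grey for shorter ones. At all 4 genes the IgG-called run at or nearest the 5′ end is pink, and the input-called runs over its span are grey. Further downstream in the Olig2 panel, another IgG-called run from 30.3 kb is pink. The input-called run from 30.3 to 54.0 kb is pink there too.

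The reverse also occurred. Of the 60 input-called domains, 13 overlapped no IgG-called domain, and these held at least 5 and a median of 11 IgG-called peaks. They included Nkx6-1, a homeobox gene of pancreatic beta cells, with 21 input-called and 17 IgG-called peaks and a longest IgG-called stretch of 15.1 kb. Pax5, a B cell factor, had 16 and 14 peaks and a stretch of 18.6 kb. Replicate 2 had 0.209 peaks per kb there (0.161 to 0.267), an interval that overlaps that of the absent IgG-called domains. The shortest IgG-called domains were 20011 bp, in the body of Pax3, and 20063 bp, over Neurog2, and the longest stretches that were not counted were 19952 bp, in Srcin1, and 19836 bp, near Vax1.

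At gene starts, 992 of 21938 protein-coding genes (4.52%) had an IgG-called peak within 1 kb of the 5′ end, beside 850 (3.87%) with an input-called peak and 912 (4.16%) with a replicate 2 peak. The IgG-called and input-called sets shared 537 genes, 54.1% of the first and 63.2% of the second. Replicate 2 had a peak at 24.4% of the 455 starts with an IgG-called and no input-called peak, and at 32% of the 537 with both. Both shares were above the 4.16% of all genes. The 5′ end of 114 genes (0.52%) lay in an IgG-called domain, and 87 of these belonged to the gene lists described next. Those lists were chosen with earlier results of these data known, so this number is partly set by the choice. The share of all protein-coding genes that belong to the lists is not given here.

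Hox, Nkx and other homeobox genes mostly had a peak at the start. Of 39 Hox cluster genes, 33 (84.6%) had an IgG-called peak there, 30 an input-called and 32 a replicate 2 peak, and 27 had both an IgG-called and a replicate 2 peak. The 5′ end of 36 lay in a domain. Counted with 5 kb on each side of the gene body, Hoxa3 had 44 IgG-called, 43 input-called and 14 replicate 2 peaks. Hoxc5 had 42, 33 and 16, and Hoxb3 and Hoxd3 had 30 IgG-called peaks each. GENCODE gives these genes long transcripts that run over their neighbours, so their peaks are partly the same ones. Hoxc4 had 18, 20 and 9.

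Of 14 Nkx genes, 12 had an IgG-called peak at the start, 12 an input-called and 7 a replicate 2 peak. Of 52 other homeobox genes the numbers were 40, 29 and 29, and 14 of the 40 had no input-called peak. Otx2, of forebrain and eye, had 20 IgG-called, 16 input-called and 9 replicate 2 peaks around its body, and Vax2, of the ventral eye, had 17, 13 and 5. For 9 Pax genes the order was the other way, with 6 IgG-called, 8 input-called and 8 replicate 2 starts. Pax7, of muscle satellite cells, had 34, 27 and 8 peaks around its body, and Pax6, of the eye, 19, 16 and 10. LIM homeobox genes had peaks at 5, 5 and 6 of 12 starts. Lmx1b had 29 IgG-called, 14 input-called and 11 replicate 2 peaks around its body, while Lhx2, of forebrain and eye, had 18, 24 and 9, so the controls ranked these members differently.

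Other families of regulators were intermediate. Neural basic helix-loop-helix and Zic genes had IgG-called peaks at 13 of 22 starts, input-called at 15 and replicate 2 at 11. Neurod2, of cortical neurons, had 15, 10 and 8 peaks around its body. Forkhead genes had peaks at 11, 8 and 15 of 22 starts, with Foxa2, an endodermal factor, at 13, 4 and 4 around its body. Tbx15, a skeletal and skin patterning gene, had 23, 18 and 11 peaks, and Tbx18, of the sinus node and ureter, 11, 5 and 6. Gata4 had 29, 30 and 15, and Six3, of the forebrain, 17, 18 and 8. Gata genes had 3, 4 and 1 of 6, T-box genes 5, 6 and 7 of 14, Sox genes 5, 4 and 4 of 12, and Iroquois and sine oculis homeobox genes 6, 5 and 3 of 12. The secreted ligands of the Wnt, Bmp, Fgf and hedgehog families had 12, 11 and 9 of 38. Fgf8 and Wnt3, ligands of early epithelial signalling, had 10 IgG-called and 7 input-called peaks each, and 1 and 4 in replicate 2. All of these lists were above the background of 4.52% in the IgG-called list, and their members were not tested as a set.

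**Figure D5:**
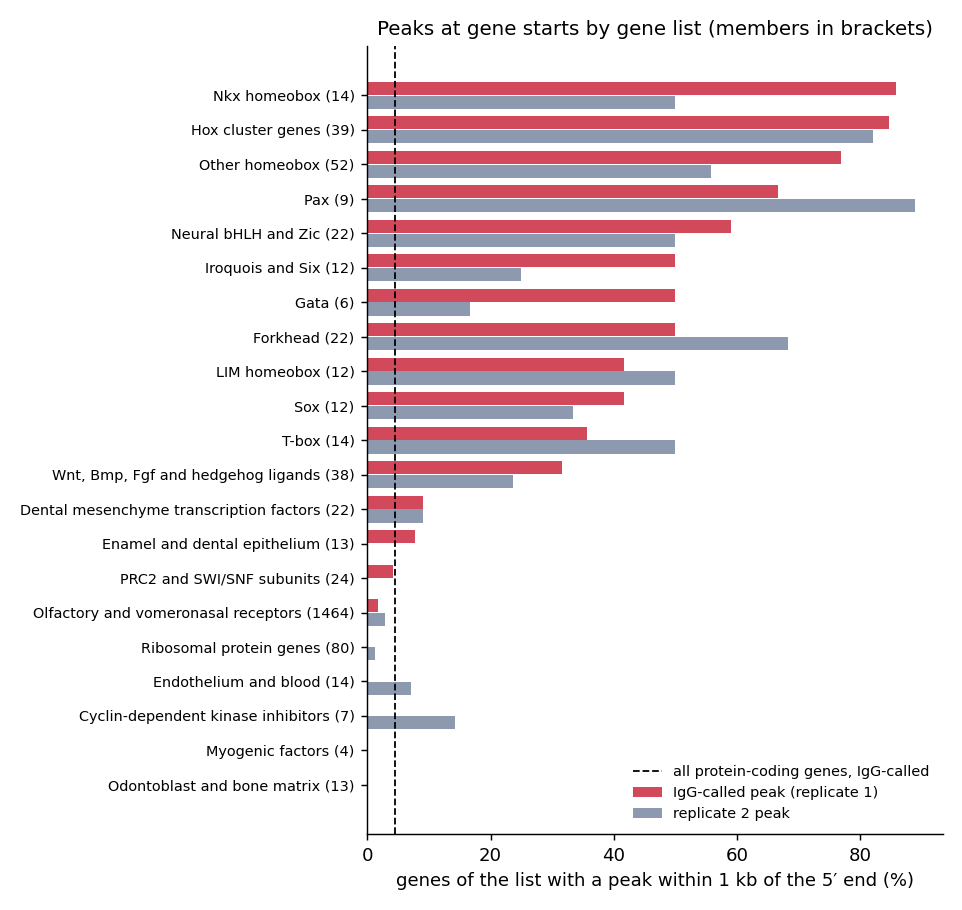
Share of genes (horizontal axis, %) with a peak within 1 kb of the 5′ end, for the IgG-called list (red) and replicate 2 (grey), by gene list with the number of members in brackets. The dashed line is the IgG-called share of all protein-coding genes, 4.52%, and homeobox lists such as Hox (84.6%) lie far above it. The ribosomal, myogenic, bone matrix and endothelial lists are at 0% in the IgG-called list. Nothing is read from this for the last 3, which are short.

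Of 22 transcription factors of dental mesenchyme, 2 (9.09%) had an IgG-called peak at the start, 3 (13.6%) an input-called and 2 (9.09%) a replicate 2 peak, beside 4.52%, 3.87% and 4.16% of all genes. Within 5 kb of the gene body 8 of the 22 (36.4%) had an IgG-called peak, against 25.9% of all genes. These 2 were Osr2, a factor of palate and tooth mesenchyme, and Twist1, of cranial mesenchyme. Hand1, of heart and limb, lay in a domain of 20.4 kb. It had 8 IgG-called, 7 input-called and 6 replicate 2 peaks around its body. Hand2, its paralog in branchial arch mesenchyme, had 3, 4 and 4, and its nearest IgG-called peak was 4018 bp from the 5′ end. A domain of 28.5 kb with 18, 20 and 8 peaks began 5.07 kb beyond the 5′ end of Hand2. Prrx1, a limb and craniofacial mesenchyme factor, had 2, 0 and 4.

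In the remaining lists 1 or 0 members had an IgG-called peak at the start, apart from the receptor genes. Odontoblast and bone matrix genes had a peak at 0 of 13 starts, as did the 4 myogenic factors, 14 endothelial and blood genes and 80 ribosomal protein genes. At a background of 4.52% a list of 14 or fewer genes would hold few or none, so nothing is read from the zeros of the short lists. Of 13 enamel and dental epithelial genes 1 (7.69%) had a peak, Epcam, an epithelial adhesion molecule, which was also called against input and had none in replicate 2. Of 1464 olfactory and vomeronasal receptor genes 25 (1.71%) had a peak, under the background of 4.52%. Replicate 2 had a peak at 43 of these starts (2.94%), under its 4.16% of all genes. Expression of the receptor genes in this tissue was not examined. Of 24 subunits of PRC2 and of the SWI/SNF remodelling complex 1 (4.17%) had a peak, Phf19, a PRC2 accessory subunit, with 2 IgG-called peaks around its body and none in the other lists. Myod1, the muscle regulator, had 1 IgG-called and 1 input-called peak around its body.

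The loci that the study drew differed widely. Cdkn2a, which encodes the cell cycle inhibitors p16 and p19, had 16 IgG-called, 15 input-called and 13 replicate 2 peaks around its body. None of the IgG-called ones lay within 1 kb of the annotated 5′ end, and the nearest was 1161 bp away, while replicate 2 had a peak 216 bp from it. The IgG-called domain ran from 1.16 to 27.3 kb downstream of that end. A single 5′ end was taken per gene, so any other start of Cdkn2a was not examined. Its neighbour Cdkn2b had 5, 4 and 2, and the other 5 cyclin-dependent kinase inhibitor genes of the list had none with either control or around the body in replicate 2. Eda, the X-linked ectodysplasin ligand of tooth development, had 2, 2 and 3. Arid1a, a SWI/SNF subunit, and Ezh2 itself had 0 IgG-called peaks, and 1 input-called peak each.

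Genes were also ranked by IgG-called peaks per kb of gene body with 5 kb on each side. The first 12 of the 778 genes with 5 or more peaks were all in domains. Ranking and domains rest on the same peaks, so this is largely set by the choice of genes. The 12 genes were Hoxb7 with 1.11 peaks per kb, Gsx2 with 1.06, Neurod2 with 1.054, Hoxb6 with 1.047, Hoxb8 with 1.04, Evx1 with 1.01, Slc32a1 with 1.001, Hoxb9 with 0.991, Hoxb13 with 0.99, Hoxc11 with 0.979, Hoxc8 with 0.963 and Neurog1 with 0.941. Input-called peaks over the same genes ranged from 0.569 to 1.054 per kb, and the order of the genes differed. Only Hoxc11 had more input-called peaks, 14, than IgG-called ones, 13. The genes were picked for many IgG-called peaks, so this too is partly set by the choice. At the starts of Hoxb9 and Hoxc8 an IgG-called and a replicate 2 peak stood within 1 kb and no input-called one. The nearest input-called peaks lay just beyond this window, 1517 bp from the Hoxb9 start and 1062 bp from the Hoxc8 start. Gsx2, Slc32a1 and Neurog1 were in domains that the input-called list lacked.

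Chromosomes differed in peak density. On autosomes it ranged from 7.26 peaks per Mb on chromosome 3 to 18.2 on chromosome 19, with a median of 10.1. Chromosome X had 1.56 per Mb, a median autosome thus having 6.49 times as many, and held 0 domains. Replicate 2 had 4.65 per Mb on X and a ratio of 2.87. The IgG-called list had 3 peaks on chromosome Y, with backgrounds of 1.018 to 3.02, and the input-called list had 0.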

How the data were processed

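According to the methods and the processing notes, alignment to GRCm38 (mm10) was by BWA, sorting by SAMtools, and peaks rested on reads that mapped to 1 place. The authors called broad peaks with MACS2 2.1.1 at p < 0.005. Duplicates were reduced to 1 tag a position, per the file headers, and 30369351 H3K27me3 tags were set against 24440452 IgG tags or 23688420 input tags, the larger library was scaled to the smaller, local background came from windows of 1 and 10 kb, and the modelled fragment was 46 bp with tags of 49 bp (71 and 74 bp in replicate 2, with 49947919 and 51681224 tags). Libraries were not pooled. Pileup as deposited is a coverage signal, averaged over the peak, in scaled overlapping tags. The deposited fold enrichment is a ratio of pileup to background with a pseudocount of 1. For p-values and q-values the authors' columns hold −log10 values. The header says that q-values were not calculated, and the column is 0 for all 24881 IgG-called peaks.

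Tags were computed as pileup over the scaling factor, and background as (pileup + 1) / fold enrichment − 1. Genes were the 21938 protein-coding genes of GENCODE M21, and sequence was GRCm38.p6. An overlap was 1 base or more. Domains were peaks merged at 5 kb or less and at least 20 kb long, and a domain was absent from the input-called list where no input-called domain overlapped it. Merging and overlap were tested on simulated data. Python 3.11.15, NumPy 2.4.6, pandas 2.3.3 and SciPy 1.17.1 were used. Named genes were those with a 5′ end in the 12 longest domains, those overlapping the 15 absent domains with most peaks (both domains tied at the last place were taken), the 12 with most peaks per kb, up to 4 members of each of 21 lists, and Hoxc4, Cdkn2a, Eda, Arid1a, Ezh2 and Hand2. Other names were added after their values were seen. Sequences were taken by the rule stated beside them, with peaks over 300 bp left out, and 1 peak that overlapped an untranslated region was replaced by the next. Members and lists were chosen with earlier results of these data known. Intervals cover counting error only and treat peaks as independent.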

Additional observations from a re-analysis of the deposited data

How the results depend on the processing

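With 1 library on each side, no replicate could be left out. No paired analysis was possible because the IgG-called list has 1 library a side. Of 54 recomputed values 9 stayed within limits and 45 did not. Counts had to lie within 1.5 times the value reported, and shares and densities within its 95% interval. None of these measures can be negative, so a change of sign was not possible. The cause of the moves was not tested, except where the setting removes peaks or widens windows by construction. Reducing the IgG-called list to as many peaks of lowest p-value as the input-called list left 75 domains and 34 absent ones, and each of those 34 was absent in the full list too.

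At a fold enrichment of 3 or higher in every list 2652 IgG-called peaks remained, 32.5% overlapped by input-called and 0.189% by replicate 2 peaks, with 161 gene starts and 13 Hox starts. At p of 0.001 or lower these were 2821, 12.7%, 0.815%, 149 and 10, and the input-called list fell to 744 peaks. Neither setting left a domain in any list (0 domains, 0 absent, 0 with a replicate 2 domain), so no density could be given. A q limit of 0.05 left 0 IgG-called peaks, 0 domains and 0 absent domains, since the column is 0 throughout that list. The header says that q-values were not calculated. The same column was above 0 at 1 input-called peak and at 245 replicate 2 peaks, and 4 replicate 2 peaks passed the limit. Whether the zeros of the IgG-called list are computed values was not tested, so no conclusion is drawn from this limit.

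The share overlapped by input-called peaks was 45.8% when 0.5 of the shorter peak had to be covered and 53.0% for a peak within 1 kb, and the share overlapped by replicate 2 was 2.27% and 13.7%. With the replicate 2 list reduced to the size of the IgG-called list that share was 2.76%, 8 domains had a replicate 2 domain, and absent domains had 0.211 replicate 2 peaks per kb. Gene starts with a peak numbered 561 at 500 bp and 2734 at 5 kb.

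Merging at 2.5 kb gave 9 domains, 4 absent, 1 with a replicate 2 domain and 0.341 replicate 2 peaks per kb in absent ones, and merging at 10 kb gave 239, 95, 55 and 0.0961. A shortest domain of 10 kb gave 268, 111, 78 and 0.157, and one of 30 kb gave 30, 17 and 4. Absent domains numbered 13 when no input-called stretch of 10 kb could overlap and 0 when no input-called peak could lie in the domain, which leaves no density to give. The split into shared and absent domains therefore depends on the length and gap limits, while the density of replicate 2 peaks stayed above the genome density of 0.0126 per kb wherever it was recomputed, which excludes the reduced IgG-called list.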
